A study of Mus musculus with 29 samples.

Results

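The 30 genes described here encode the enzymes of the tricarboxylic acid (TCA) cycle, the pyruvate dehydrogenase complex with the kinases and phosphatases that control it, and the proteins that carry pyruvate into mitochondria or carboxylate it there. They were taken by symbol from a list of pathway members, by a rule that uses no measured values, and are 30 of the 17536 genes present in both deposited tables. All 30 reached 1 FPKM (fragments mapped to a gene, scaled to transcript length and library size) in every library and were among the 13174 genes tested.

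RNA was sequenced from subcutaneous white adipose tissue of female and male mice, either NCOA1 knockouts (KO) or wild types (WT). Ncoa1 encodes a coactivator of nuclear receptors. Mice were injected intraperitoneally for 7 days with CL316,243 (CL), an agonist of the β3-adrenergic receptor of adipocytes, at 0.5 mg/kg, or with NaCl. The groups were KO females given CL (3 mice), WT females given CL (4), KO females given NaCl (3), WT females given NaCl (2), KO males given CL (4), WT males given CL (4), KO males given NaCl (3) and WT males given NaCl (4). The labels do not state the strain, the age, the deleted exons or whether the deletion was confined to a tissue, and p-values measure the spread between these samples.

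Ncoa1 was at 1.47 to 2.9 FPKM in KO libraries and at 4.93 to 9.16 FPKM in WT libraries, so every library matched its genotype label. Summed FPKM per library was 563255 to 707161, and read depth is unknown because no counts were used here. Values came from 2 tables made separately. The second held only NaCl-treated mice, from KO females, WT females and KO males. It was thus partly confounded with treatment in the CL comparisons of these groups, but not in WT males. As it held no WT males, it was also partly confounded with genotype in NaCl-treated males and with sex in NaCl-treated WT mice. In addition, 2 sample names, replicate 3 of the NaCl-treated WT females and replicate 3 of the NaCl-treated KO males, head a column in both. The 2 sample records that match no column are labelled as a mouse of each of these same groups, so whether the repeated columns come from 1 mouse or from different mice cannot be told apart. Each pair was averaged as 1 mouse, and the number of mice given for these 2 groups rests on that reading. The columns differed: for the WT female, Csn2, a milk casein, stood at 0.25 FPKM in the first table and 14859.9 FPKM in the second, and 25 of the 30 genes were higher in the second (median log2 difference 0.78, against -0.24 over all genes). Markers of skeletal muscle summed to 76862 FPKM in replicate 2 of the NaCl-treated KO females, 5099 FPKM in replicate 4 of the CL-treated WT males and 4645 FPKM in replicate 1 of the NaCl-treated KO males. Markers of fat cells, such as Adipoq and Plin1, summed to 17647 to 55793 FPKM over 8 genes, so fat cell transcripts were present in every library. Besides the libraries with the muscle sums above, replicate 4 of the CL-treated KO males and replicate 2 of the NaCl-treated KO males were classed as high in muscle genes. Counts of the 30 genes called were also made without all 5 libraries high in muscle genes.

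The TCA cycle oxidises the acetyl group of acetyl-CoA in the mitochondrial matrix and passes the electrons to the respiratory chain. Pyruvate enters through the mitochondrial pyruvate carrier and becomes acetyl-CoA in the pyruvate dehydrogenase complex, which kinases switch off by phosphorylation and phosphatases switch on again, or oxaloacetate through pyruvate carboxylase. In white fat, citrate from the cycle also leaves the mitochondrion as a source of acetyl-CoA for fatty acid synthesis, and β3-adrenergic stimulation is known to raise the oxidative capacity of adipocytes.

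FPKM is scaled to transcript length, so levels can be set beside each other. Averaged over the 8 group means, the pyruvate carrier gene Mpc1 had the highest level (849.9 FPKM), followed by the mitochondrial malate dehydrogenase gene Mdh2 (562 FPKM), the E1β subunit gene Pdhb (535 FPKM) and pyruvate carboxylase, Pcx (468 FPKM). The lowest levels were 2.69 FPKM for the phosphatase Pdp1, 4.54 FPKM for the kinase Pdk3, 5.04 FPKM for the phosphatase regulator Pdpr and 5.87 FPKM for the phosphatase Pdp2. The kinases spanned a wide range, with Pdk2 (78.4 FPKM) and Pdk4 (44.97 FPKM) above the complex subunit Pdhx (35.2 FPKM). Between group means, Pdk4 (coefficient of variation 56.3%), Sucla2 (55.7%) and Suclg1 (50.8%) varied most, and Pdpr (8.55%), Idh1 (14.3%) and Aco1 (16.1%) least. Together the 30 genes took 1.24% to 1.54% of summed FPKM in CL-treated WT males, against 0.605% to 0.756% in NaCl-treated WT males. The share was 0.983% to 1.41% in CL-treated KO males and 0.602% to 0.778% in NaCl-treated KO males. In KO females it was 0.946% to 1.26% under CL and 0.466% to 0.669% under NaCl, and in none of these 3 comparisons did the ranges overlap. In WT females the ranges overlapped, with 1.01% to 1.49% under CL and 0.602% to 1.09% under NaCl.

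**Figure D1:**
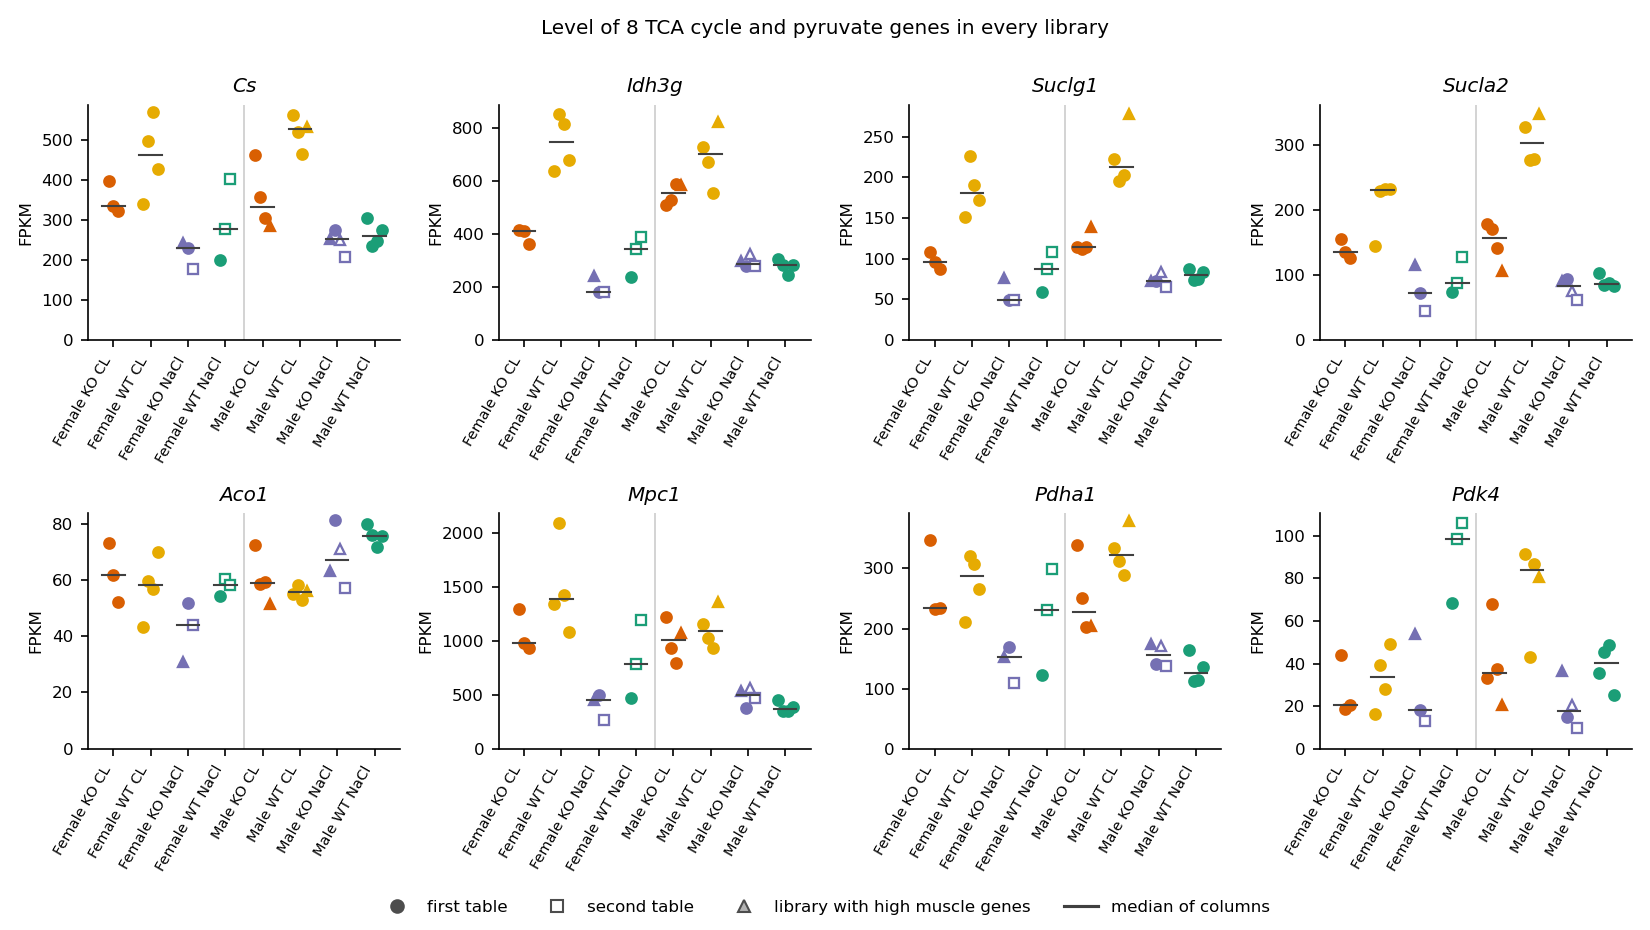
FPKM (y axis) of 8 genes in every library, by group (x axis). Circles and filled triangles are first-table columns, open symbols second-table columns, triangles libraries high in muscle genes, and lines medians of columns. For Suclg1, the 4 CL-treated WT males (196 to 278 FPKM) lie above both the CL-treated KO males (111 to 139 FPKM) and the NaCl-treated WT males (73.5 to 87.3 FPKM).

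In WT males most of the 30 genes were higher after CL. Of the 30 genes, 22 rose and 1 fell at an adjusted p under 0.05, where 5.35% of all tested genes rose and 5.92% fell. These are Benjamini-Hochberg values from limma, fitted on log2(FPKM + 1), and differences below are on this log2 scale, CL minus NaCl, with their standard error (SE). The scale understates ratios of genes at a few FPKM. The median difference of the 30 genes was 1.01, against -0.05 over all tested genes. In 23 of the 30 every CL value lay above every NaCl value, as in 9.53% of all genes, and in 1 every CL value lay below, as in 16.1%. The number of genes called was 20 to 22 when any 1 mouse of these groups was left out.

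From citrate synthase to 2-oxoglutarate, 4 of 7 genes rose and 1 fell. Cs, citrate synthase, which joins acetyl-CoA to oxaloacetate, was at 565, 521, 467 and 535 FPKM in CL-treated WT males, against 305, 237, 247 and 275 FPKM in NaCl-treated WT males. Each CL-treated mouse was above each NaCl-treated mouse, and the difference was 0.97 ± 0.15 (limma, Benjamini-Hochberg adjusted p 1.5e-04). The 3 subunits of the NAD-dependent isocitrate dehydrogenase of the matrix rose together: Idh3b by 1.41, Idh3g by 1.30 and the catalytic subunit Idh3a by 0.72.

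The exception was Aco1, cytosolic aconitase, which also acts as an iron regulatory protein. It stood at 55.0, 58.3, 52.9 and 56.0 FPKM in CL-treated WT males, against 79.7, 75.8, 71.6 and 75.5 FPKM in NaCl-treated WT males. All 4 CL values were below all 4 NaCl values, yet the call was marginal (-0.44 ± 0.14, adjusted p 0.0488) and held in only 3 of 21 alternative settings (adjusted p 0.0018 to 0.11). The NADP-dependent isocitrate dehydrogenases of cytosol and mitochondria, Idh1 (0.09 ± 0.20, 95% interval -0.32 to 0.50) and Idh2 (0.21 ± 0.18, -0.16 to 0.58), did not pass the test.

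From 2-oxoglutarate to oxaloacetate, 8 of 9 genes rose. The largest change among the 30 genes was that of Sucla2, the ATP-forming β subunit of succinyl-CoA synthetase. It stood at 329, 278, 279 and 347 FPKM in CL-treated WT males, against 104, 84.7, 88.0 and 84.0 FPKM in NaCl-treated WT males. The lowest CL value was above the highest NaCl value by a wide gap (1.76 ± 0.18, adjusted p 1.2e-06). Suclg1, the α subunit that both forms of this enzyme share, was at 223, 196, 202 and 278 FPKM under CL, against 87.3, 73.5, 75.4 and 83.8 FPKM under NaCl. Its groups did not overlap either (1.47 ± 0.14, adjusted p 6.6e-07). Suclg2, the GTP-forming β subunit, changed less, by 0.63.

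The 2-oxoglutarate dehydrogenase subunits Ogdh (1.03), Dlst (1.09) and Dld (0.95) rose, as did fumarase, Fh1 (1.05). Mdh2, which regenerates oxaloacetate in the matrix, rose by 1.17. Its cytosolic counterpart Mdh1 did not pass the test (0.30 ± 0.14, adjusted p 0.19, 95% interval 0.01 to 0.59). Complex II, which oxidises succinate inside the cycle, is not among the 30 genes. Its 4 subunit genes Sdha to Sdhd were called higher as well, the smallest difference being 0.76 for Sdhc.

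All 4 genes particular to the pyruvate dehydrogenase complex rose. The E1 subunits Pdhb and Pdha1 rose by 1.57 and 1.31, the acetyltransferase Dlat by 1.38 and the E3-binding protein Pdhx by 0.99. Mpc1, which with Mpc2 forms the pyruvate carrier, was at 1161, 1029.7, 933 and 1366 FPKM in CL-treated WT males, against 449, 352, 353 and 385 FPKM in NaCl-treated WT males. The groups did not overlap (1.54 ± 0.19, adjusted p 1.7e-05), and Mpc2 rose by 1.05. Pcx, which makes oxaloacetate from pyruvate, stood at 519, 586, 469.7 and 509 FPKM under CL, against 389, 309, 275 and 371 FPKM under NaCl. Its groups did not overlap (0.64 ± 0.18, adjusted p 0.020).

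Of the 4 kinases that inactivate the complex, Pdk1 (1.21) and Pdk2 (1.09) rose. Pdk4, the isoform known to rise with fasting and fatty acid supply, was at 91.4, 43.3, 87.0 and 80.7 FPKM in CL-treated WT males, against 35.4, 45.6, 48.6 and 25.5 FPKM in NaCl-treated WT males. Replicate 2 of the CL-treated mice lay within the NaCl range, and Pdk4 did not pass (0.93 ± 0.41, adjusted p 0.16). Pdk3 was lower on average and did not pass (-0.28 ± 0.22). Among the phosphatases, Pdp2 rose by 0.51, while Pdp1 (0.03) and the regulatory subunit Pdpr (0.09) did not pass.

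Replicate 4 of the CL-treated WT males, the library high in muscle genes, had the highest value of its group for 20 of the 30 genes, Suclg1, Sucla2, Mdh2, Pdha1 and Mpc1 among them. Without the libraries high in muscle genes 21 of the 30 genes were called, all higher. Brown and beige adipocyte markers moved with these genes: 6 of 8 rose, and their summed level was 2935 to 5898 FPKM under CL, against 333 to 777 FPKM under NaCl. Macrophage markers fell in 3 of 10, with sums of 300.2 to 426 FPKM under CL and 564 to 759.9 FPKM under NaCl. Their part in the result was not tested, and in whole tissue fewer cells of a type and less RNA per cell cannot be told apart.

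The sequence around the start of transcription was available for 28 of the 30 genes, all but Idh3a and Pdp1, from RefSeq (GRCm38.p6), as 250 bases before and 50 bases after 1 annotated transcription start. That start was the outermost 5′ end of the gene in 22 of the 28 and lay up to 100 bases from it in 3, among them Dlst (11 bases), but was 3258 bases from it for Idh2, 311 for Pdhb and 136 for Pdpr. It was searched on both strands for 3 motifs of factors known for mitochondrial genes. CCGGAAG, a binding core of ETS factors such as GABP, was in 4 of 28 windows (14.3%), against 9.14% of the windows of all 27025 genes. AAGGTCA, the half-site of estrogen-related receptors, was in 0 of 28 (4.65% of all genes), and GCGCATG, the core of the NRF1 site, in 0 of 28 (4.03%). The 4 genes with an ETS core were Idh3b, Idh3g, Dlst and Mpc1, each of which rose in WT males, and their windows are shown with the core in capitals on whichever strand it was found. That of Aco1, the gene that fell, is shown beside them and holds none of these letters, which says only that they are not in this window. A match is a description and not a binding site. The windows lie at chr2:130284402-130284701 (minus strand) for Idh3b, chrX:73786848-73787147 (minus) for Idh3g, chr12:85110583-85110882 (plus) for Dlst, chr17:8283537-8283836 (plus) for Mpc1 and chr4:40143015-40143314 (plus) for Aco1, and are written 5′ to 3′ on the strand of the gene.
Idh3b: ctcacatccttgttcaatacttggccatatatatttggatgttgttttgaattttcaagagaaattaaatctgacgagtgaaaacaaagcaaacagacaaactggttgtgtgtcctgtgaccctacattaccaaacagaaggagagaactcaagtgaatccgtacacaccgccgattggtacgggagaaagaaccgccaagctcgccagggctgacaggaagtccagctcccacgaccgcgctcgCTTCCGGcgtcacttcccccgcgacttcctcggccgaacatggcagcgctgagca
Idh3g: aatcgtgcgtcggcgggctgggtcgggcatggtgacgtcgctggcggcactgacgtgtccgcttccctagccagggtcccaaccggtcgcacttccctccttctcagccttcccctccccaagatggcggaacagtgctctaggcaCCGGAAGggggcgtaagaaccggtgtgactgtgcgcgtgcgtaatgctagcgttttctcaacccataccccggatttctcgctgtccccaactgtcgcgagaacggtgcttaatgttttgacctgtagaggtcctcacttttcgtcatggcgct
Dlst: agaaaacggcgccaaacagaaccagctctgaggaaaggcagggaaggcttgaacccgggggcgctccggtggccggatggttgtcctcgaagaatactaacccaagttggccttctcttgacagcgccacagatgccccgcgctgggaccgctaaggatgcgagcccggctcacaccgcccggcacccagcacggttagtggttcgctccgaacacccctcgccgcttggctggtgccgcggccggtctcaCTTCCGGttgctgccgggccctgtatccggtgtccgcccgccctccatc
Mpc1: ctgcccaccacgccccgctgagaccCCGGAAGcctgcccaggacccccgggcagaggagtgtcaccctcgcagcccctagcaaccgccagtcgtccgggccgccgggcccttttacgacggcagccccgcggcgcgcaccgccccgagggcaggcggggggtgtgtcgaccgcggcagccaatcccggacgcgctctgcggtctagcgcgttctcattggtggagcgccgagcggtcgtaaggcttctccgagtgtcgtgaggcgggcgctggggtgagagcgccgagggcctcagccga
Aco1: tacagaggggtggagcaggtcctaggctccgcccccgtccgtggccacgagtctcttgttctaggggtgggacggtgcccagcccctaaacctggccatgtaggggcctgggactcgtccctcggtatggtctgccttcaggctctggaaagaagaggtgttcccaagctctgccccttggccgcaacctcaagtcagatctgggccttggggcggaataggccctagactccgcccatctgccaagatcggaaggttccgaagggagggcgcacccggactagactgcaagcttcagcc

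In KO males fewer of these genes passed the test after CL. Of the 30, 5 rose and 0 fell, where 2.1% of all genes rose and 5.15% fell (7.25% in either direction), and the median difference was 0.44, against 0.01 over all genes. The 5 were Idh3g (0.86 ± 0.16, adjusted p 0.0030), Idh3b (0.84 ± 0.17, adjusted p 0.0057), Mdh2 (0.72 ± 0.17, adjusted p 0.015), Fh1 (0.56 ± 0.15, adjusted p 0.027) and Suclg1 (0.63 ± 0.18, adjusted p 0.033). At an unadjusted p under 0.05, 14 of the 30 genes were higher and 1 was lower, where 2954 of all 13174 genes were under it in either direction. In 18 genes every CL value lay above every NaCl value (7.21% of all genes), and in 1, Pdp1, named after its values were seen, every one lay below (11.1%).

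Suclg1 was at 114, 111, 114 and 139 FPKM in CL-treated KO males, against 73.1 and 83.1 FPKM with 72.4 and 65.2 FPKM in the repeated columns in NaCl-treated KO males. The 4 CL values lay above all NaCl columns, with replicate 4 the highest. Of the 4 genes of the pyruvate dehydrogenase complex 0 passed, with differences of 0.42 to 0.53, and 3 were higher at an unadjusted p under 0.05. Cs (0.37 ± 0.18), Aco1 (-0.09 ± 0.18), Pcx (0.53 ± 0.22) and Pdk4 (0.34 ± 0.52) did not pass, with adjusted p of 0.23, 0.81, 0.15 and 0.74. The count of 5 fell to 1 without NaCl replicate 1 and to 3 without NaCl replicate 3. Leaving out the libraries high in muscle genes left only replicate 3 of the NaCl-treated KO males, so no count is given for that setting. All 10 macrophage markers fell in this comparison, with sums of 292 to 549.6 FPKM under CL and 579 to 2019.7 FPKM under NaCl, and 2 of 8 brown and beige markers rose (1450.4 to 2295 FPKM under CL and 322 to 761 FPKM under NaCl). White adipocyte markers summed to 45818 to 55793 FPKM under CL and 35630.1 to 44679 FPKM under NaCl, with 1 of 8 called higher. The part of these markers in the result was not tested.

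The difference between the CL responses of KO and WT males was tested as an interaction in the same limma fit. Of the 30 genes 0 passed, against 7 of all 13174 genes (0.0531%). At an unadjusted p under 0.05, 17 of the 30 were lower and 0 higher, where 1585 of all 13174 genes were under it in either direction. The smallest p belonged to Sucla2, whose response in KO males minus that in WT males was -1.24 ± 0.29 on the log2 scale (95% interval -1.83 to -0.64, adjusted p 0.14), and to Suclg1 (-0.83 ± 0.23, -1.31 to -0.36, 0.18). The median of the 30 differences was -0.53, against 0.04 over all genes. All 4 genes of the pyruvate dehydrogenase complex were lower at an unadjusted p under 0.05 (median -0.84), but a differing response was not established for any single gene.

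In KO females 20 of the 30 genes rose and 1 fell after CL, where 5.14% of all genes rose and 2.28% fell, with a median difference of 0.72 against -0.02 over all genes. Mpc1 was at 1299, 985 and 935 FPKM in CL-treated KO females, against 268, 453 and 503 FPKM in NaCl-treated KO females. The groups did not overlap (1.30 ± 0.24, adjusted p 0.0020). Mpc2 rose as well (1.18 ± 0.23, adjusted p 0.0037). All 4 genes of the pyruvate dehydrogenase complex rose, Pdha1 the least (0.83) and Dlat the most (1.16 ± 0.23, adjusted p 0.0038), and so did Pdk1 (1.04 ± 0.21, adjusted p 0.0038).

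Pcx was at 678, 523 and 490.4 FPKM in CL-treated KO females, against 271, 232 and 338 FPKM in NaCl-treated KO females. The groups did not overlap (1.04 ± 0.22, adjusted p 0.0051). In the cycle 11 of 16 genes rose, with Idh3g (0.97 ± 0.15, adjusted p 6.1e-04) ahead and Dlst (0.82 ± 0.15, adjusted p 0.0019), Dld (0.82 ± 0.16, adjusted p 0.0030) and Cs (0.63 ± 0.18, adjusted p 0.039) after it. Cytosolic genes were among them, Mdh1 (0.82) and Aco1. Aco1 was at 73.3, 61.9 and 52.3 FPKM under CL, against 43.9, 30.97 and 51.8 FPKM under NaCl. The lowest NaCl value was that of replicate 2, the library high in muscle genes, and the highest NaCl value was just under the lowest CL value (0.62 ± 0.17, adjusted p 0.033). Sucla2 missed the threshold at an adjusted p of 0.05001 (0.72 ± 0.22), and Pdk4 did not pass (-0.18 ± 0.51, adjusted p 0.90).

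The phosphatase genes went opposite ways in KO females. Pdp1 was at 2.02, 2.26 and 1.87 FPKM under CL, against 3.14, 6.13 and 3.60 FPKM under NaCl, and was the only gene of the 30 that fell (-0.79 ± 0.18, adjusted p 0.0085). It is named because it stood alone, after its values were seen. Pdp2 was at 9.09, 7.24 and 7.17 FPKM under CL, against 4.64, 4.18 and 4.27 FPKM under NaCl, and rose by 0.79. In both, CL and NaCl values did not overlap.

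Replicate 2 of the NaCl-treated KO females, whose 15 muscle markers summed to 76862 FPKM against 62.2 and 65.3 FPKM in the other libraries of its group, had the highest value of its group for 18 of the 30 genes, among them Idh2 (159 FPKM), Pdk2 (133 FPKM), Pdk4 (53.8 FPKM) and Pdp1 (6.13 FPKM). Without it 14 of the 21 calls remained. Aco1 (0.37, adjusted p 0.25), Pdp1 (-0.48, 0.10), Pcx (0.88, 0.053), Cs (0.70, 0.068), Pdha1, Pdhb and Suclg2 lost theirs, and 18 of the 30 genes were called, all higher. With all 5 libraries high in muscle genes left out, 11 were called, also all higher. Without replicate 1 of the CL-treated KO females 12 were called, and with these 2 groups fitted alone 0 were called. In 21 of the 30 genes every CL value lay above every NaCl value (10.5% of all genes), and in 1 below (9.4%). Of 8 white adipocyte markers 4 rose (sums of 37384 to 42734 FPKM under CL and 17647 to 29373 FPKM under NaCl), and 5 of 8 brown and beige markers did (1758 to 2296 FPKM under CL and 220.1 to 1108 FPKM under NaCl). Macrophage markers summed to 641 to 1006 FPKM under CL and 1029 to 2059 FPKM under NaCl, without overlap, and 1 of 10 fell. Without NaCl replicate 2, 1 white adipocyte marker, 5 brown and beige markers and 0 macrophage markers were called. The part of these markers in the result was not tested.

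In WT females the CL response rested on 2 NaCl-treated mice. Of the 30 genes 5 rose and 0 fell, where 2.01% of all genes rose and 1.55% fell (3.56% in either direction), and the median difference was 0.50, against -0.04 over all genes. The 5 were Idh3g (1.17 ± 0.19, adjusted p 0.0034), Mpc2 (1.08 ± 0.29, adjusted p 0.044), Suclg1 (1.07 ± 0.22, adjusted p 0.013), Mdh2 (0.98 ± 0.21, adjusted p 0.018) and Idh3b (0.86 ± 0.21, adjusted p 0.031). Suclg1 was at 152, 226, 190.0 and 172 FPKM in CL-treated WT females, against 87.5 FPKM with 58.6 and 109 FPKM in the repeated columns in NaCl-treated WT females. All CL values were above all NaCl columns, of which those of the second table were the higher. At an unadjusted p under 0.05, 14 of the 30 genes were higher and 1 was lower, where 2902 of all 13174 genes were under it in either direction.

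The repeated mouse decided how many genes passed. With its first-table column alone 18 of the 30 genes were called, and with its second-table column alone 1 was called. When that mouse was left out 0 were called, and when the second table was left out altogether 19 were called. The brown and beige adipocyte markers of the NaCl-treated WT females summed to 567 FPKM in the first-table column, 1931 FPKM in the second-table column of the same name and 1519 FPKM in the other mouse, against 4462 to 6771 FPKM under CL. White adipocyte markers summed to 34418 to 54446 FPKM under CL and 30245 to 30581 FPKM under NaCl, with 1 of 8 called higher. Mammary markers, high in the second-table column, fell in 2 of 9 tested genes, and 2 of 10 macrophage markers fell (382 to 495 FPKM under CL and 419.9 to 1218 FPKM under NaCl). The part of these lists in the result was not tested. Cs (0.52 ± 0.23, adjusted p 0.19), Aco1 (0.07 ± 0.22, 0.87) and Pcx (0.17 ± 0.27, 0.74) did not pass.

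Pdk4 stood apart in these mice. It was at 16.3, 39.5, 28.3 and 49.3 FPKM in CL-treated WT females, against 98.6 FPKM with 68.5 and 106 FPKM in the repeated columns in NaCl-treated WT females. Every CL value lay below every NaCl column, in either table, as in 1 of the 30 genes and 11.3% of all genes, while 11 of the 30 lay wholly above (7.45%). The difference of -2.20 ± 0.64 (95% interval -3.53 to -0.87) narrowly missed the threshold (limma, Benjamini-Hochberg adjusted p 0.058). It passed in 4 of 19 alternatives (adjusted p 0.025 to 1).

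**Figure D2:**
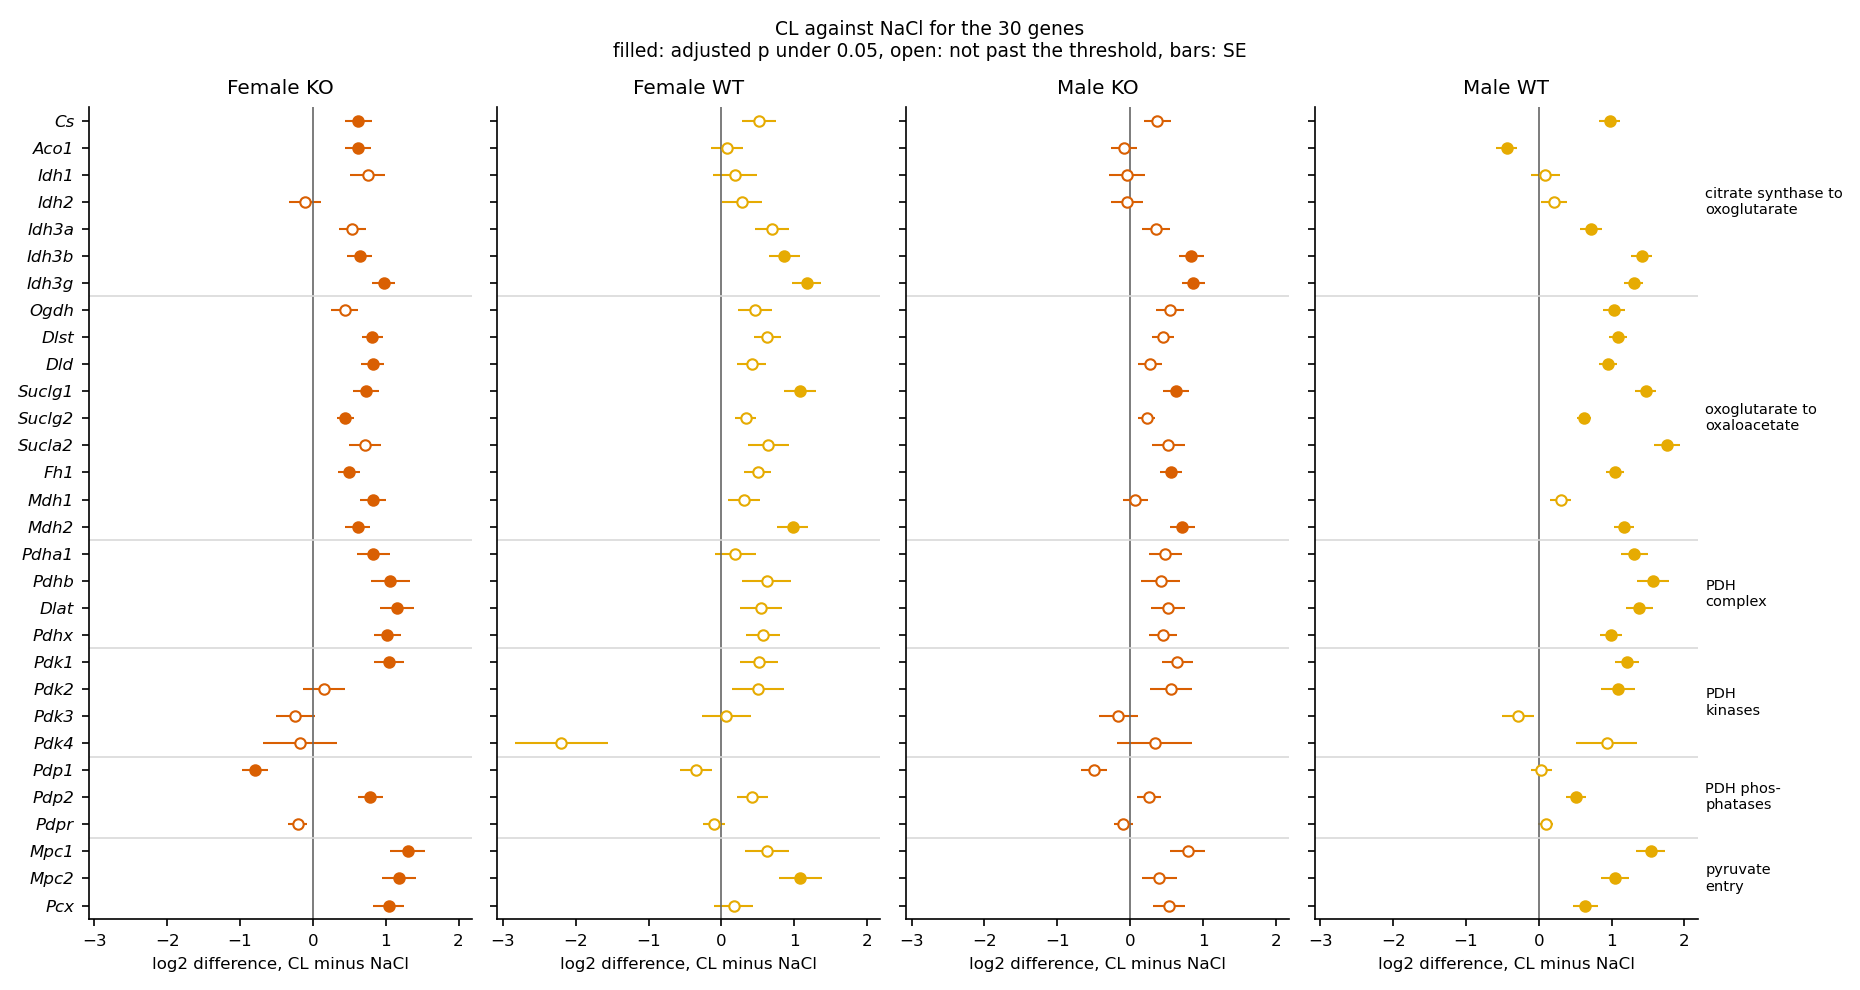
Log2 difference, CL minus NaCl (x axis), with SE for the 30 genes by role (y axis), in KO and WT females and males. Filled points passed the adjusted p threshold of 0.05. WT males have 22 genes filled to the right and KO females 20, against 5 each in KO males and WT females.

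The balance within enzyme pairs that catalyse the same reaction varied by pair and group. Mdh2 over Mdh1 was 1.58 to 1.97 in CL-treated KO males and 1.14 to 1.43 in NaCl-treated KO males. In WT males it was 2.34 to 3.09 under CL and 1.34 to 1.57 under NaCl, and in WT females 1.92 to 2.52 under CL and 1.36 to 1.75 under NaCl. KO females overlapped, with 1.09 to 1.29 under CL and 1.28 to 1.73 under NaCl. Sucla2 made up 90.1% ± 0.98 of the succinyl-CoA synthetase β subunit FPKM in CL-treated WT males and 80.7% ± 1.4 in NaCl-treated WT males (SD, n = 4 each). Its CL range lay within or overlapped its NaCl range in KO females (82.5% to 83.5% under CL, 70.8% to 85.1% under NaCl) and KO males (78.0% to 84.8% and 74.2% to 78.4%), and was higher in WT females (86.6% to 90.0% and 78.2% to 86.3%). Idh1 made up 50.0% ± 2.4 of the NADP-dependent isocitrate dehydrogenase FPKM in CL-treated WT males and 52.0% ± 3.2 in NaCl-treated WT males (SD, n = 4 each), a difference within the spread, and its CL and NaCl ranges overlapped in all 4 sex and genotype combinations. These balances are descriptions and were not tested.

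**Figure D3:**
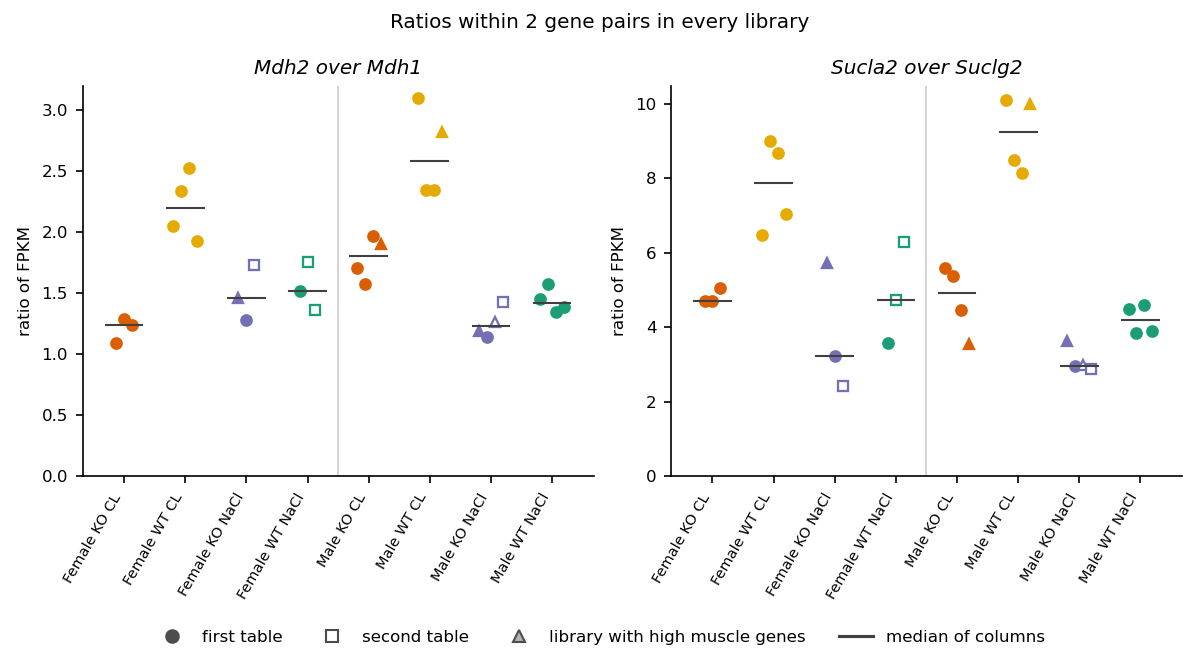
Ratio of FPKM within 2 enzyme pairs (y axis) in every library, by group (x axis). Symbols are circles for first-table columns, open squares for second-table columns, triangles for libraries high in muscle genes and lines for medians of columns. Mdh2 over Mdh1 separates CL-treated WT males (2.34 to 3.09) from CL-treated KO males (1.58 to 1.97) and from NaCl-treated WT males (1.34 to 1.57).

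The make-up of the kinases was described by shares and not tested. Pdk4 took 24.3% ± 8.5 of summed kinase FPKM in CL-treated KO males and 39.3% ± 7.4 in CL-treated WT males (SD, n = 4 each). Under NaCl it took 22.8% ± 8.6 in KO males (n = 3) and 40.7% ± 7.5 in WT males (n = 4). In females it took 19.2% ± 5.9 in CL-treated KO mice (n = 3) and 17.9% ± 7.0 in CL-treated WT mice (n = 4). NaCl-treated KO females had 21.7% ± 5.3 (n = 3) and NaCl-treated WT females 49.4% ± 4.0 (n = 2). By mean share Pdk2 was the largest kinase transcript in all groups except NaCl-treated WT females. In KO females, Pdp1 made up 13.8% ± 1.8 of phosphatase gene FPKM under CL and 29.1% ± 4.7 under NaCl (SD, n = 3 each).

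**Figure D4:**
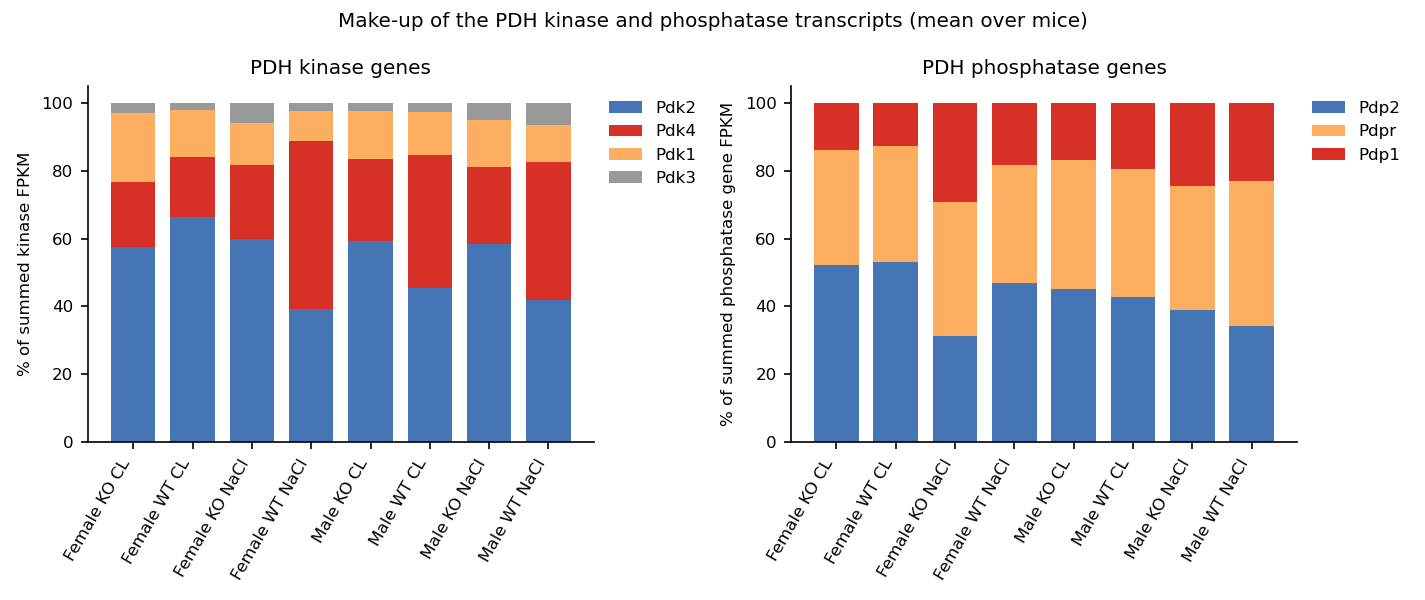
Share (y axis, % of summed FPKM, mean over mice) of each kinase gene (left) and phosphatase gene (right) by group (x axis). Pdk4 is near 40% in WT males under either treatment and 49.4% in NaCl-treated WT females, against 17.9% to 24.3% in the other groups.

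Knockout against wild type under CL addresses how the treated depot differs by genotype. In females 7 of the 30 genes were lower in KO mice and 0 were higher, where 3.63% of all genes were lower and 9.01% higher (12.6% in either direction). The median difference, KO minus WT, was -0.14, against 0.09 over all genes. The 7 were all enzymes of the cycle: Suclg1 (-0.91 ± 0.15, adjusted p 0.0020), Idh3g (-0.90 ± 0.14, adjusted p 7.2e-04), Mdh2 (-0.81 ± 0.15, adjusted p 0.0041), Idh3b (-0.75 ± 0.15, adjusted p 0.0063), Idh3a (-0.74 ± 0.17, adjusted p 0.0098), Ogdh (-0.62 ± 0.16, adjusted p 0.019) and Fh1 (-0.54 ± 0.13, adjusted p 0.014). In 8 genes every KO value lay below every WT value (6.88% of all genes).

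Suclg1 was at 109, 96.1 and 86.9 FPKM in CL-treated KO females, against 152, 226, 190.0 and 172 FPKM in CL-treated WT females. Idh3g was at 417, 412 and 363 FPKM in CL-treated KO females, against 637, 856, 817 and 681 FPKM in CL-treated WT females. In both, the groups did not overlap.

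In males 6 of the 30 genes were lower in CL-treated KO mice and 0 were higher, where 1.1% of all genes were lower and 0.843% higher (1.94% in either direction), and the median difference was -0.31, against -0.06 over all genes. Sucla2 was at 179, 171, 142 and 107 FPKM in CL-treated KO males, against 329, 278, 279 and 347 FPKM in CL-treated WT males. The groups did not overlap (-1.06 ± 0.18, adjusted p 0.0026). Suclg1 also differed without overlap (-0.89 ± 0.14, adjusted p 0.0014). Idh3a (-0.69 ± 0.15, adjusted p 0.020), Dlst (-0.50 ± 0.12, adjusted p 0.034), Cs (-0.58 ± 0.15, adjusted p 0.044) and Idh2 (-0.68 ± 0.18, adjusted p 0.0499) completed the 6, the last of these at the threshold. In 11 genes every KO value lay below every WT value (7.89% of all genes), and in 0 above (3.67%).

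Idh2 was at 111, 94.3, 112 and 108 FPKM in CL-treated KO males, against 180.4, 163, 174 and 168 FPKM in CL-treated WT males. No values overlapped, and under NaCl it was at 94.0 and 89.0 FPKM with 114 and 102 FPKM in the repeated columns in KO males, against 143, 160.4, 151 and 139 FPKM in WT males, again without overlap but short of the threshold (-0.43 ± 0.22, adjusted p 0.22). The count of 6 fell to 2 without KO replicate 2, 3 or 4 or without WT replicate 1 or 4, and to 3 without the libraries high in muscle genes. Suclg1 and Sucla2 were called in all 21 alternatives in males, and Suclg1, Idh3g and Mdh2 in all 20 in females. The female count fell to 4 without KO replicate 3.

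None of the 4 genes particular to the pyruvate dehydrogenase complex passed in either sex. Their differences were -0.17 to 0.04 in females and -0.42 to 0.06 in males. With 95% intervals of -0.45 to 0.38 in females and -0.80 to -0.04 in males for Pdha1, the missed threshold does not show equal levels. Pdk4 was lower on average in KO males (-0.97 ± 0.41) and did not pass (adjusted p 0.29). Of the 8 brown and beige adipocyte markers, 5 were lower in KO females and 3 in KO males. Their sums were 1758 to 2296 FPKM in CL-treated KO females and 4462 to 6771 FPKM in CL-treated WT females. In males they were 1450.4 to 2295 FPKM in CL-treated KO mice and 2935 to 5898 FPKM in CL-treated WT mice. White adipocyte markers summed to 45818 to 55793 FPKM in CL-treated KO males and 36720.1 to 44450 FPKM in CL-treated WT males (2 of 8 called higher), and lymphocyte markers to 1.95 to 168.5 FPKM in CL-treated KO males and 173 to 345 FPKM in CL-treated WT males (0 of 8 called). Macrophage markers were higher in CL-treated KO females in 7 of 10 (sums of 641 to 1006 FPKM, against 382 to 495 FPKM in CL-treated WT females). The part of these markers in the result was not tested.

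**Figure D5:**
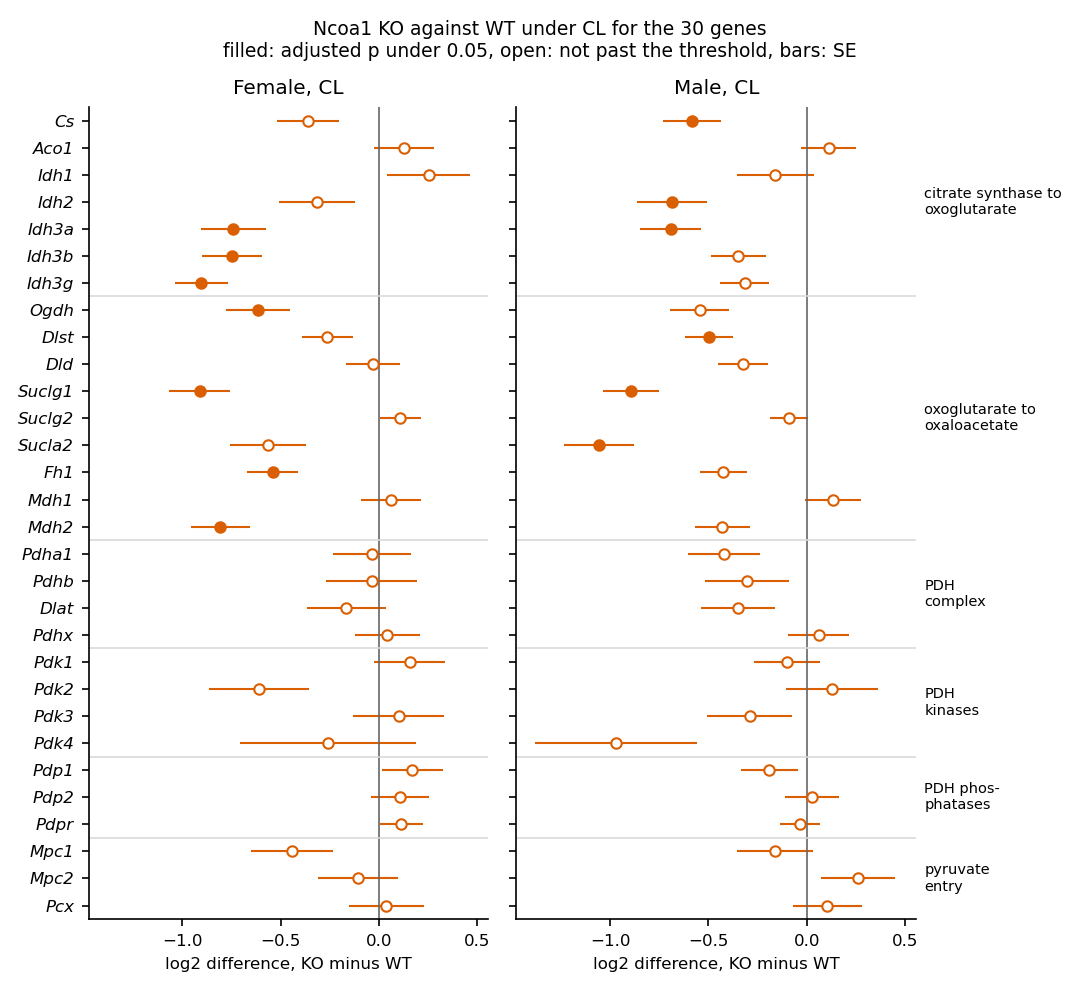
Log2 difference, KO minus WT, under CL (x axis) with SE for the 30 genes by role (y axis), in females and males. Filled points passed the adjusted p threshold of 0.05, and the 7 of females and 6 of males lie left of zero, all in the 2 blocks of the TCA cycle.

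Under NaCl few of these genes passed between the genotypes. In females 0 of 30 passed limma's test (0.0911% of all genes were higher and 0.417% lower in KO mice). At an unadjusted p under 0.05, 18 of the 30 were lower and 1 was higher, where 1218 of all 13174 genes were under it in either direction. The median was -0.45, against 0.08 over all genes. In 5 genes every KO value lay below every WT value (4.62% of all genes), and in 1 above (5.33%). The smallest p belonged to Mpc1 (-1.12 ± 0.27, adjusted p 0.073) and Idh3g (-0.71 ± 0.17, adjusted p 0.079). Both rested on the repeated WT female: with the first table alone the direction of Mpc1 turned (0.026) and Idh3g was at -0.18, while with its second-table column both passed (-1.59 and -0.94). Mpc1 was also at -0.61 without KO replicate 1. Without KO replicate 2, the library high in muscle genes, 3 genes passed, all lower. Of the 8 brown and beige adipocyte markers 4 were lower in KO females (sums of 220.1 to 1108 FPKM in NaCl-treated KO females and 567 to 1931 FPKM in NaCl-treated WT females), as were 2 of 9 mammary markers. White adipocyte markers, with 0 of 8 called, summed to 17647 to 29373 FPKM in NaCl-treated KO females and 30245 to 30581 FPKM in NaCl-treated WT females. The part of these markers in the result was not tested. In males 1 gene passed, where 3.18% of all genes were higher and 4.16% lower (7.34% in either direction). Mpc2 was at 267 and 383 FPKM with 237 and 362 FPKM in the repeated columns in NaCl-treated KO males, against 176, 151, 158 and 169 FPKM in NaCl-treated WT males. All KO values were higher (0.90 ± 0.24, adjusted p 0.024). The call was lost in 8 of 20 alternatives, in which the difference ranged from 0.62 to 1.12. It was lost without KO replicate 1 or 2 or WT replicate 2. Fitting only the compared groups, or counting the repeated columns as different mice, also removed it. So did taking only first-table values, whether for the repeated mouse or for all mice. Second-table columns were on the KO side only. In 5 of the 30 genes every KO value lay above every WT value (8.41% of all genes), and in 2 below (12.7%). Macrophage markers were higher in 6 of 10 (sums of 579 to 2019.7 FPKM in NaCl-treated KO males and 564 to 759.9 FPKM in NaCl-treated WT males), and their part in the result was not tested.

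Between the sexes, in CL-treated WT mice, Mpc2 was higher in females (0.74 ± 0.19, adjusted p 0.011). Idh2 (-0.64 ± 0.18, adjusted p 0.018), Suclg2 (-0.32), Pdp1 (-0.46), Sucla2 (-0.57 ± 0.18, adjusted p 0.033) and Pdk4 (-1.21 ± 0.41, adjusted p 0.048) were lower in females, against 7.81% higher and 10.1% lower of all genes. Idh2 was at 94.6, 101, 113 and 131 FPKM in CL-treated WT females, against 180.4, 163, 174 and 168 FPKM in CL-treated WT males. The sexes did not overlap, as in 2 of the 30 genes with every female value below (11.9% of all genes) and 0 above (9.18%). In NaCl-treated WT mice Mpc1 was higher in females (1.29 ± 0.30, adjusted p 0.016), against 1.97% of all genes. It was at 787 FPKM with 469 and 1199 FPKM in the repeated columns in NaCl-treated WT females, against 449, 352, 353 and 385 FPKM in NaCl-treated WT males. The groups did not overlap, but the call was lost in 7 of 19 alternatives and the difference ranged from 0.29 to 1.77. It was 0.65 (adjusted p 0.30) when the repeated female had its first-table value alone, 0.29 (adjusted p 0.67) with the first table alone, 1.47 (adjusted p 0.084) without that female and 1.19 (adjusted p 0.081) without the other.

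In NaCl-treated KO mice Aco1 (-0.67 ± 0.17, adjusted p 0.015), Idh3g (-0.59 ± 0.15, adjusted p 0.016) and Mdh1 (-0.57 ± 0.17, adjusted p 0.036) were lower in females (3.3% of all genes), and in CL-treated KO mice Idh3g was (-0.48 ± 0.14, adjusted p 0.027; 2.59% of all genes). Mammary epithelium markers moved with sex in every comparison: they summed to 148 to 925 FPKM in CL-treated WT females and 0.81 to 24.9 FPKM in CL-treated WT males, to 283 to 42023 FPKM in NaCl-treated WT females and 0.92 to 1.54 FPKM in NaCl-treated WT males, and to 264 to 782 FPKM in KO females and 0.39 to 6.71 FPKM in KO males over both treatments. White adipocyte markers were without overlap lower in females in the other 3 comparisons, at 37384 to 42734 FPKM in CL-treated KO females and 45818 to 55793 FPKM in CL-treated KO males, 17647 to 29373 FPKM in NaCl-treated KO females and 35630.1 to 44679 FPKM in NaCl-treated KO males, and 30245 to 30581 FPKM in NaCl-treated WT females and 31590 to 42772 FPKM in NaCl-treated WT males. Macrophage markers were higher in CL-treated KO females (641 to 1006 FPKM) than in CL-treated KO males (292 to 549.6 FPKM). The part of these markers in the sex differences was not tested. The sex counts depended on single mice: the 6 genes of CL-treated WT mice became 1 without female replicate 1 and 0 without male replicate 3. In NaCl-treated KO mice 0 to 6 genes were called without single mice. Of 19 alternatives there, Mdh1 lost its call in 14, Aco1 in 8 and Idh3g in 6. The lowest female Aco1 value, 30.97 FPKM, was that of replicate 2, the library high in muscle genes. A sex difference in the response to CL was not called for any of the 30 genes in WT mice (0 higher and 11 lower at an unadjusted p under 0.05 in limma) or KO mice (8 higher and 0 lower). Of all 13174 genes, 1212 were under that unadjusted p in WT mice and 1334 in KO mice, in either direction. The smallest p in KO mice were those of Mdh1 (0.75 ± 0.23, adjusted p 0.24) and Aco1 (0.71 ± 0.23, adjusted p 0.27). Genotype by treatment in females gave 0 calls as well, with Pcx (0.87 ± 0.31, adjusted p 0.93) and Pdk4 (2.02 ± 0.73, adjusted p 0.93) at the smallest p. At an unadjusted p under 0.05, 3 of the 30 were higher and 0 lower there, where 628 of all 13174 genes were under it in either direction. In WT mice the smallest p were those of Pdk4, with a female minus male difference in response of -3.13 ± 0.76 (adjusted p 0.22), and Sucla2 (-1.12 ± 0.33, adjusted p 0.38).

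Related pathways were read from lists of genes outside the 30, beside the shares of all genes that rose after CL (5.35% in WT males, 2.1% in KO males, 5.14% in KO females and 2.01% in WT females) or fell (5.92% in WT males and 2.28% in KO females). Of 6 genes that make or attach lipoate, the cofactor of both dehydrogenase complexes, 4 rose in WT males, such as Mecr (1.05 ± 0.15, adjusted p 9.7e-05), a reductase of mitochondrial fatty acid synthesis. In KO females 4 rose as well, also without NaCl replicate 2, and 2 without all libraries high in muscle genes. In KO males 2 rose, 1 without NaCl replicate 1, and in WT females 1, 0 without the repeated mouse and 2 without CL replicate 1 or 4. Of 14 genes of mitochondrial import, chaperones and proteases, 5 rose in WT males (median 0.26), among them the protease Lonp1 (0.70 ± 0.08, adjusted p 7.9e-06), and 1 in KO males (median 0.19), or 2 without CL replicate 1. In KO females 7 rose (median 0.50), 5 without NaCl replicate 2 and 4 without all libraries high in muscle genes. In WT females 5 rose (median 0.31), but 8 when the repeated mouse had its first-table value alone, 0 with its second-table value, 0 without that mouse, 1 without the other NaCl-treated mouse and 2 without CL replicate 2 or 3.

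Of 14 genes of anaplerosis, malic enzyme and citrate export, 3 rose in WT males: the citrate carrier Slc25a1 (1.39 ± 0.27, adjusted p 0.0017), malic enzyme Me1 (1.45 ± 0.30, adjusted p 0.0025) and the ATP-citrate lyase Acly (1.80 ± 0.47, adjusted p 0.014). In KO females 2 of these 14 rose and 3 fell, but without NaCl replicate 2, the library high in muscle genes, 2 rose and 0 fell. The aspartate transaminases were among the 3 that lost the call: Got1 was at -1.78 with that library and -0.69 without it (adjusted p 0.28), and Got2 at -1.15 with it and -0.41 without it (adjusted p 0.33). Of 8 genes of lactate and pyruvate exchange, pyruvate kinase Pkm (1.43 ± 0.27, adjusted p 0.0011) and the lactate dehydrogenase Ldhb (0.90 ± 0.25, adjusted p 0.020) rose in WT males and the monocarboxylate transporter Slc16a7 (-1.01 ± 0.16, adjusted p 1.7e-04) fell, and 1 instead of 2 rose without CL replicate 1 or 4 or NaCl replicate 3. Of 10 transcriptional regulators of oxidative genes, Ppara (1.36 ± 0.23, adjusted p 4.3e-04) and Ppargc1b (0.84 ± 0.17, adjusted p 0.0021) rose in WT males. Without NaCl replicate 2, Ppara (0.66, adjusted p 0.27) and Ppargc1b (0.26, adjusted p 0.60) did not pass in KO females. The estrogen-related receptor gene Esrra did pass in that setting (0.81, adjusted p 0.045).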

How the data were processed

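Per the labels, RNA of frozen subcutaneous fat was sequenced on DNA nanoballs. The authors deposited FPKM in 2 tables of 24 and 5 columns. HISAT2 2.0.4 and GRCm38/mm10 come from the submitters' processing notes. For the program and annotation that gave the FPKM, no source used here has a name. The treatment labels of CL samples count up from CL316,243, so groups follow the titles. Of 29 sample records, 2 (a NaCl-treated WT female and a NaCl-treated KO male) matched no column and were not analysed here. In the same 2 groups, 2 names head a column in each table. These were averaged on the log2 scale, leaving 27 mice, but may be different mice. Reading them so was an alternative.

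The 13174 genes that reached 1 FPKM in 3 or more mice were tested as log2(FPKM + 1) in 1 limma fit (3.58.1, R 4.3.3) over all 8 groups, with the table as a covariate and 18 residual plus 2.92 prior degrees of freedom, two-sided, in 16 comparisons. The second table held NaCl-treated mice only, so this covariate is partly confounded with treatment outside WT males. That table held no WT males, so the covariate is also partly confounded with genotype in NaCl-treated males and with sex in NaCl-treated WT mice. P-values were adjusted by Benjamini-Hochberg over all tested genes, with a threshold of 0.05. The fit was tested on simulated data. Intervals are 95% intervals from the same fit. No counts were available, so precision is known only from the spread between mice.

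Cs, Aco1, Pcx and Pdk4 are named in every CL comparison. Genes past the threshold may be named in any, with full statistics for the 8 with the smallest p, or the 2 with the smallest p where 0 passed. Other members are named to account for all 30. The genes and lists were chosen with earlier results of these data known. Alternatives covered scaling, pseudocount (0.1), filters (none, or 5 FPKM), the table, repeated names, samples fitted, a replicate block, muscle-high libraries and single mice. Leaving out both mice with repeated names was chosen after seeing the data.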

Additional observations from a re-analysis of the deposited data

Results flagged for a closer look

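In 4 of 120 gene and group combinations of 4 mice, the highest or lowest mouse stood so far from the others that the gap passed Dixon's 95% limit, and chance alone gives about 1 in 20. In CL-treated KO males, replicate 4 was the highest for Suclg1 (139.03 FPKM) and the lowest for Suclg2 (30.16 FPKM). That library had muscle markers summing to 1295 FPKM. In CL-treated WT females, replicate 1 was the lowest for Sucla2 (145.33 FPKM), and in CL-treated WT males replicate 1 stood apart for Pdpr (4.59 FPKM).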

How the results depend on the processing

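Counts of the 30 genes called are given by alternative. In WT males after CL every alternative gave 20 to 24. Fitted on only the groups compared, CL in WT females, KO females and KO males gave 0 each, KO against WT under CL in females 3 and under NaCl in males 0, and female against male 0 (WT under NaCl), 1 (WT under CL), 0 (KO under NaCl) and 2 (KO under CL). Quantile normalization gave 2 for CL in WT females, 2 and 2 for KO against WT under NaCl in females and males, 3 under CL in males, and 3 and 4 for the sexes in WT and KO mice under CL. With repeated columns as separate mice, CL in WT females gave 14 and in KO males 11, KO against WT in males 0 under NaCl and 3 under CL, and the sexes in NaCl-treated WT mice 2. With the first-table column of repeated names these were 18, 8, 0, 3 and 0. With the second-table column, CL in WT females gave 1 and in KO males 3, KO against WT 6 in NaCl-treated females and 3 in CL-treated males, and the sexes 6 (WT, NaCl), 1 (KO, NaCl) and 2 (KO, CL). The first table alone gave 19 for CL in WT females, 0 and 3 for KO against WT in males under NaCl and CL, and 0, 1 and 2 for the sexes in the same order. Without the table covariate, CL in WT females gave 15 and in KO males 12, KO against WT under NaCl 1 in females and 2 in males, and the sexes in NaCl-treated WT mice 5. Without libraries high in muscle genes, CL gave 11 in KO females, and KO against WT gave 3 in NaCl-treated females and 3 in CL-treated males. The sexes gave 2 (WT, NaCl) and 2 (KO, CL). Only replicate 3 of the NaCl-treated KO males remained in this setting, so counts of comparisons with that group are left out. Leaving out both mice with repeated names, chosen after seeing the data, gave 0 for CL in WT females, 2 in KO males, 3 for KO against WT in CL-treated males, and 0 and 1 for the sexes in NaCl-treated WT and KO mice. Deviations of same-numbered mice from their group means had correlations of -0.48 to 0.26, those of WT males being 0.067 to 0.26. Mice of different numbers were not compared, so this cannot decide whether the numbers pair mice. A replicate block gave 2 for CL in WT females, 3 in KO males and 3 for KO against WT in CL-treated males. Leaving out single mice gave, for CL, 0 to 7 in WT females, 12 to 19 in KO females, 20 to 22 in WT males and 1 to 6 in KO males. For KO against WT it gave 0 to 3 and 4 to 10 in females under NaCl and CL, and 0 to 2 and 2 to 5 in males. For the sexes it gave 0 to 2 and 0 to 6 in WT mice under NaCl and CL, and 0 to 6 and 0 to 1 in KO mice. Interactions gave 0 to 0 for genotype by treatment in either sex and for sex by treatment in WT mice, and 0 to 2 in KO mice. Of the values for named genes under alternatives, 1665 kept direction and call, 329 lost the call, 19 gained it and 14 reversed. The reversed log2 differences were those of uncalled genes. For CL in WT females they were Pcx with quantile normalization (-0.12), the second-table column (-0.038) and no muscle-high libraries (-0.086), and Aco1 with repeated columns separate (-0.026), no covariate (-0.043) and no muscle-high libraries (-0.15). Leaving out single mice gave -0.031 to 0.20 for Aco1, the lowest without CL replicate 4. For CL in KO females Pdk4 became 0.11 without the covariate and 0.56 without muscle-high libraries, and was -0.65 to 0.44 without single mice, above 0 without CL replicate 2 (0.03) or NaCl replicate 2. In KO males Pdk4 became -0.11 without both mice with repeated names and was -0.038 to 0.70 without single mice, the lowest without NaCl replicate 3. Mpc1 in KO against WT females under NaCl became 0.026 with the first table alone. The cause of these shifts was not tested. Depth is unknown from FPKM, and NaCl-treated WT females number 2.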
